A study of Mus musculus with 8 samples.

Results

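The 9 genes described here encode the machinery that puts peptides on major histocompatibility complex (MHC) class I molecules: the heavy chains H2-K1, H2-D1, H2-Q7 and H2-T23, the light chain B2m, the peptide pump subunits Tap1 and Tap2, the loading factor Tapbp, and the regulator Nlrc5. They were taken by symbol from the GENCODE M21 annotation, and all 9 were found among the 52636 genes of the count table. MHC class I molecules hold peptides cut from proteins made inside a cell and show them to CD8 T cells and natural killer (NK) cells. The heavy chain folds with B2m in the endoplasmic reticulum, the TAP1/TAP2 transporter pumps in peptides cut by the proteasome, and tapasin, the product of Tapbp, holds the empty molecule at the transporter until a peptide fits. Nearly all nucleated cells carry class I, lymphocytes at high levels. NLRC5, together with factors bound at conserved promoter boxes, and interferon signals raise most of these genes together.

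Immune cells were taken from the spleen and the lymph nodes of mice 35 to 55 days old that had no signs of disease yet, and were cultured for 4 days with anti-CD3 (1 μg/ml), IL-23 and IL-6 (20 ng/ml each), human TGF-β (4 ng/ml) and IL-12 (3 ng/ml), a TH1/TH17 stimulation given to every group. The 4 groups were TCR1640 females, TCR1640 males, SJL/J females and SJL/J males, each with 2 RNA sequencing libraries. TCR1640 is a line on the SJL/J background whose T cells bear 1 transgenic, myelin-specific receptor, and SJL/J mice served as the wild type. SJL/J mice have another H2 haplotype than the C57BL/6 reference genome, so reads of the H2 genes had to align to another strain's alleles in all 4 groups. The labels do not say how many mice gave the cells of a library. The design asks how males and females, and the 2 strains, differ in these cultured cells.

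Column totals ran from 3765291 to 5116467 counts. The 2 columns within a group were almost as alike as repeated draws from 1 library (chi-square per degree of freedom 1.05 to 1.08, against 3.12 to 17.05 between groups, leaving out the gene Gm43333). With Gm43333 included, these values were 1.34 to 2.44 within groups and 3.18 to 18.6 between groups. They were therefore summed and counted as 1 sample, so n = 1 per group, and values of single columns show the spread between libraries only. The sex labels matched the counts of Eif2s3y (0 in the 4 female columns, 87 to 124 in the 4 male columns). The strain labels went against the T cell receptor counts. Of the counts over T cell receptor beta variable segments, the share of Trbv2 was 58.3% in SJL/J females and 63.05% in SJL/J males (exact 95% intervals 51.45 to 64.98 and 56.73 to 69.06), but 19.7% and 20.6% where the label was TCR1640 (16.6 to 23.1 and 17.8 to 23.5). Traj43 likewise led the alpha joining counts under the SJL/J label only, with shares of 75.6% and 79.2% against 5.04% and 2.91%. One receptor thus dominated the libraries labelled as wild type, and every strain direction below is a direction between labels.

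The heavy chain genes lie in the H2 region of chromosome 17 (GRCm38): H2-K1 (ENSMUSG00000061232) at 33996017 to 34000347, H2-D1 (ENSMUSG00000073411) at 35262730 to 35267499, H2-Q7 (ENSMUSG00000060550) at 35439155 to 35443773 and H2-T23 (ENSMUSG00000067212) at 36029773 to 36032855. Tapbp (33915899 to 33929292), Tap1 (34187553 to 34197225) and Tap2 (34203527 to 34216321) lie in the same region. B2m (ENSMUSG00000060802) is on chromosome 2 at 122147686 to 122153083, and Nlrc5 (ENSMUSG00000074151) on chromosome 8 at 94434356 to 94527272. RefSeq start-site windows on GRCm38.p6, 250 bases before and 50 after a start, were at hand for 7 of the 9 genes, and Tap2 and Nlrc5 had no entry. The windows of H2-K1, H2-D1, H2-Q7 and B2m are shown because class I promoters carry the boxes through which NF-κB, interferon regulatory factors and the NLRC5 complex act. The windows of H2-K1, H2-D1 and H2-Q7 hold these boxes in a shared order, which that of H2-T23 does not. Capitals mark, on either strand, the NF-κB box as it reads in the H2-K1 window, GGGGATTCCC, an interferon response element as it reads in the B2m window with its middle bases open, GAAANNGAAA, or shorter by 1 base, GAANNGAAA, the TGACG core of the X2 box and the CCAAT box called Y. No 2 of these overlapped in the windows shown.
H2-K1 promoter window (chr17:34000298-34000597, minus strand): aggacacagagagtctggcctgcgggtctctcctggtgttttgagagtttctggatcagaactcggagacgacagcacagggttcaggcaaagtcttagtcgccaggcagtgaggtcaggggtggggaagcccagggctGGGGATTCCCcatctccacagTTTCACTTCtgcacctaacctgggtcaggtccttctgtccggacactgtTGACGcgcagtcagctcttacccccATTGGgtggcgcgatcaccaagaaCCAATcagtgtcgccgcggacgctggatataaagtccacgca
H2-D1 promoter window (chr17:35262844-35263143, plus strand): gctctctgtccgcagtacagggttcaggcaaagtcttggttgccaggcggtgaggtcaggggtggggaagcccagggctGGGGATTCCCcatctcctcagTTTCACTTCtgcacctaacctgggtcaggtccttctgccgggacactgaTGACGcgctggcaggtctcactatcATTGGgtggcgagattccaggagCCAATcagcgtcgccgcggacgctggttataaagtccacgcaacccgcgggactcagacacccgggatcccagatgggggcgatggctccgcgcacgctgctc
H2-Q7 promoter window (chr17:35438905-35439204, plus strand): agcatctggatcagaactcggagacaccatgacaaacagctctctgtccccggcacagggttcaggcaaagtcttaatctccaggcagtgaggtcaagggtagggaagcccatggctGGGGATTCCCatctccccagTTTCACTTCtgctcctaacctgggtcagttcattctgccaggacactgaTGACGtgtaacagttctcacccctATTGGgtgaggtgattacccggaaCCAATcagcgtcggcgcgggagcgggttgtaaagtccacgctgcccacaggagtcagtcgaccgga
B2m promoter window (chr2:122147437-122147736, plus strand): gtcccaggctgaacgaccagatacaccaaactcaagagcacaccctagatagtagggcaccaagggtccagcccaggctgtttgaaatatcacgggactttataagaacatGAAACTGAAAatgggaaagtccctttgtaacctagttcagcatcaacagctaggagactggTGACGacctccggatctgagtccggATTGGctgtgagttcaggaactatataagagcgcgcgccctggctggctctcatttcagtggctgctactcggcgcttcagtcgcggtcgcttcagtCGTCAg

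The 3 heavy chain windows held the boxes in the same order, NF-κB, GAANNGAAA (read here as TTTCACTTC), TGACG and CCAAT. Of all 32851 windows in the table, 0.107% held GGGGATTCCC, 7.52% GAANNGAAA, 3.44% GAAANNGAAA, 20.8% TGACG and 37.4% CCAAT, counting both strands. Only 4 windows held GGGGATTCCC, GAANNGAAA, TGACG and CCAAT together, namely both windows listed for H2-K1 and those of H2-D1 and H2-Q7. The B2m window held GAAACTGAAA, followed by TGACG and CCAAT (read as ATTGG). The H2-T23 window held GAAANNGAAA and CCAAT, the Tap1 window TGACG and CCAAT, and the Tapbp window CCAAT alone. The spellings were chosen with these windows in view, so the shares are a description, and a match is not a binding site.

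Levels are given as CPM, counts scaled to a common library size after TMM scaling, and for comparison between genes as CPM per kilobase of exon. The strand setting of the counting is not given, so these may not be levels of the genes' own transcripts. B2m had the highest level per kilobase, with a median of 374 over the 8 columns (304 to 447). H2-K1 followed at 294 (261 to 334) and H2-D1 at 211 (180.5 to 243). The ranges of B2m and H2-K1 overlapped. H2-Q7 stood at 55.2 (48.4 to 65.96), Tapbp at 40.8 (33.7 to 43.3) and H2-T23 at 30.96 (27.9 to 33.5). Tap1 at 27.85 (22.9 to 31.3) and Tap2 at 26.4 (22.9 to 28.8) overlapped each other, and both overlapped H2-T23, so these neighbours in the order were not separated by their spread. Nlrc5 was the lowest at 5.94 (4.27 to 8.23). The 9 genes together made up 2705 CPM in females and 2791 CPM in males labelled TCR1640, against 2203 and 2337 CPM in those labelled SJL/J.

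**Figure D1:**
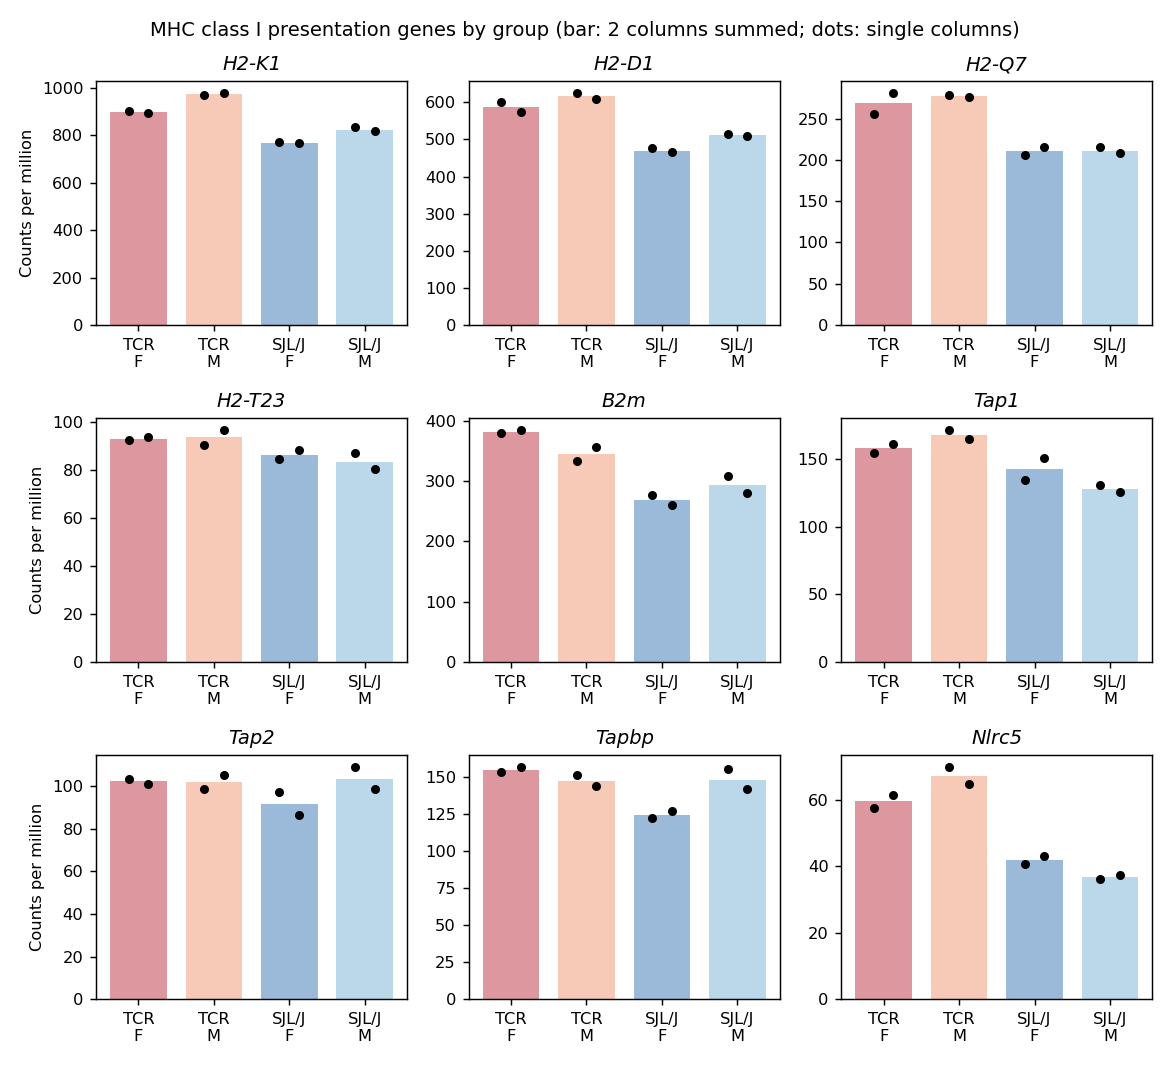
CPM of each of the 9 genes (vertical axis, from 0, own scale per gene) in the 4 groups. Bars are the summed sample of a group and dots its 2 columns (F, female; M, male). For 7 genes all 4 dots labelled TCR1640 lie above all 4 labelled SJL/J, and for Tap2 and Tapbp they overlap. Of all tested genes, 16.5% were separated in that direction and 16.3% in the other.

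Between strain labels, 4 of the 9 genes were higher under the TCR1640 label and 5 did not pass, with Nlrc5 the furthest apart. Averaged over sexes, Nlrc5, B2m, H2-Q7 and H2-D1 rose with the TCR1640 label and none fell, by an edgeR quasi-likelihood test with Benjamini-Hochberg adjustment over 17261 genes. The same fit called 26.5% of all tested genes, 13.4% as higher and 13.1% as lower. Of the 5 members with no overlap on the other strand 3 rose, against 11.1% of such genes. It used the 4 summed samples, 2 against 2, with 1 residual degree of freedom, so its errors rest on the strain-by-sex part and on spread shared across genes, not on spread between mice. DESeq2 called 1 of 9, Nlrc5, as higher, against 3.56% of all genes. With the 8 columns as separate samples edgeR called 8 of 9 as higher, all but Tap2, against 25% of all genes. Without the number 2 columns edgeR called Nlrc5 alone. The median log2 difference of the 9 genes was 0.27, against 0.01 over all tested genes, and all 9 values were above 0, as were 50.9% of all values.

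Nlrc5, the transcriptional activator of class I genes, had 57.7 and 61.6 CPM in the female and 69.9 and 64.9 CPM in the male columns labelled TCR1640. It had 40.8 and 43.2 CPM in the female and 36.3 and 37.4 CPM in the male columns labelled SJL/J. The columns of the 2 labels did not overlap in either sex. Averaged over sexes Nlrc5 rose by a log2 difference of 0.69 (SE 0.14, edgeR adjusted p = 1.50e-05), higher in 2 of 2 sexes. In the whole distribution of log2 differences it stood above 90.9% of tested genes. It passed under every alternative setting tried, DESeq2 included (adjusted p = 0.0341).

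Among the heavy chains, H2-K1 and H2-D1 are the classical molecules, H2-Q7 is a nonclassical Qa-2 chain, and H2-T23 encodes Qa-1, which NK cells read through CD94/NKG2 receptors. H2-Q7 had 255 and 281 CPM in females and 278.5 and 276 CPM in males labelled TCR1640, against 206 and 216 CPM in females and 215 and 209 CPM in males labelled SJL/J. Its columns did not overlap between labels, and it rose by 0.37 on the log2 scale (SE 0.12, edgeR adjusted p = 0.0102). That call was lost with DESeq2 (adjusted p = 0.148) and without the number 2 columns (0.0504). H2-D1 had 602 and 574 CPM in females and 626 and 609 CPM in males labelled TCR1640, and 477, 465, 516 and 510 CPM in the same order under the SJL/J label. It rose by 0.30 (SE 0.11, edgeR adjusted p = 0.0360), a call lost with DESeq2 (adjusted p = 0.257), with upper-quartile scaling (0.0509), with a 1 CPM filter (0.0556) and in 5 fits that left out columns, of which that without the number 1 columns gave the largest adjusted p, 0.0951.

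H2-K1, the most counted of the 9 genes, had 896 to 980 CPM in the 4 columns labelled TCR1640 and 767 to 834 CPM in the 4 labelled SJL/J. Its columns did not overlap, but its log2 difference of 0.24 (SE 0.11) did not pass (edgeR adjusted p = 0.101). H2-T23 had 90.6 to 96.8 CPM against 80.6 to 88.3 CPM. It stood closest to equality of the heavy chains, with a log2 difference of 0.14 (SE 0.13, edgeR adjusted p = 0.490). Summed over these 4 heavy chains, the level was 1848 CPM in females and 1961 CPM in males labelled TCR1640, against 1534 and 1628 CPM.

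B2m, the light chain shared by all class I molecules, had 379 and 385 CPM in females and 334 and 357 CPM in males labelled TCR1640. It had 278 and 261 CPM in females and 309 and 281 CPM in males labelled SJL/J. The columns did not overlap between labels, but the gap was wide in females and narrow in males. Averaged over sexes it rose by 0.37 (SE 0.12, edgeR adjusted p = 0.00848). Without the number 2 columns the value was 0.27 (adjusted p = 0.111), and the call was also lost with DESeq2 (0.148) and without TCR1640 male column 2 (0.0502).

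Values for the transporter and its partner did not pass. Tap1 had 154 to 171 CPM under the TCR1640 label and 126 to 151 CPM under the SJL/J label, a log2 difference of 0.27 (SE 0.12) that did not pass (edgeR adjusted p = 0.0928). Tap2, the other subunit of the transporter, had 98.5 to 105 CPM against 86.6 to 109 CPM, and Tapbp had 144 to 157 CPM against 122 to 156 CPM. Both overlapped between labels, with log2 differences of 0.07 and 0.16 (edgeR adjusted p = 0.754 and 0.394). Over the 9 genes, the 4 columns of one label all lay above the other 4 for 7 genes, against 16.5% of tested genes in that direction and 16.3% in the other. The columns of a group are not separate samples, so this count describes libraries.

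**Figure D2:**
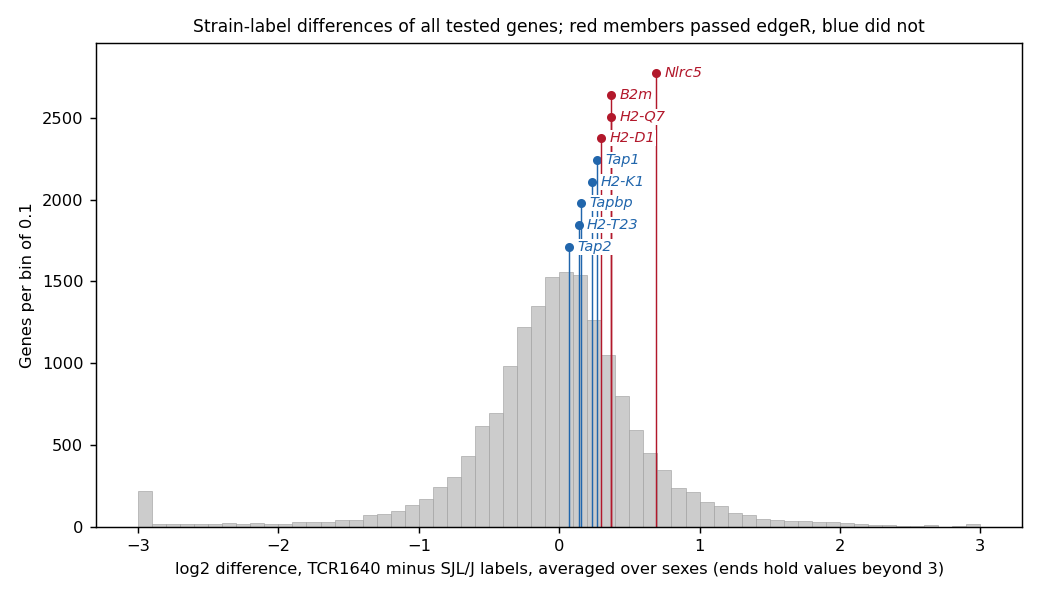
Histogram of log2 differences between strain labels, averaged over sexes, of the 17261 tested genes (horizontal axis, TCR1640 minus SJL/J; vertical axis, genes per bin), with the 9 genes marked at staggered heights. All 9 lie above 0, 4 passed edgeR (red), and Nlrc5 at 0.69 lies furthest out, with many genes of the table further from 0 than the others.

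Within each sex, ratios of the summed samples had no replicate check and are given with exact 95% counting intervals. Such intervals narrow as counts rise. The shares over all genes set beside them below include weakly counted genes and were not matched to the 9 in depth. In females all 9 genes were higher under the TCR1640 label, with a median log2 ratio of 0.32 against 0.02 over all genes with at least 20 counts, and the intervals of 8 excluded equality on the higher side, as did those of 21.4% of these genes (19.5% lay on the lower side, and none of the 9 did). The ratio was 0.51 (0.31 to 0.71) for Nlrc5 and 0.51 (0.43 to 0.59) for B2m. H2-T23 stood at 0.11 (-0.04 to 0.26). None of the 9 reached 1.5-fold, which 20.5% of all genes passed in females.

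In males 7 of 9 genes were higher, the median was 0.24 against 0.00 over all genes, and 7 intervals lay above equality (23.1% of all genes, with 22.9% below). Nlrc5 at 0.87 (0.67 to 1.08), or 1.83-fold, was the only one of the 9 past 1.5-fold, against 24.5% of all genes in males, and it did not reach 2-fold. H2-Q7 and Tap1 each stood at 0.39 (0.30 to 0.48 and 0.28 to 0.51). B2m at 0.23 (0.16 to 0.31) was below its female value. Tap2 at -0.02 (-0.15 to 0.12) and Tapbp at 0.00 (-0.12 to 0.11) lay at equality. Intervals of the most counted genes are narrow, and that of H2-T23, at 0.17 (0.02 to 0.31), only just excluded equality.

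**Figure D3:**
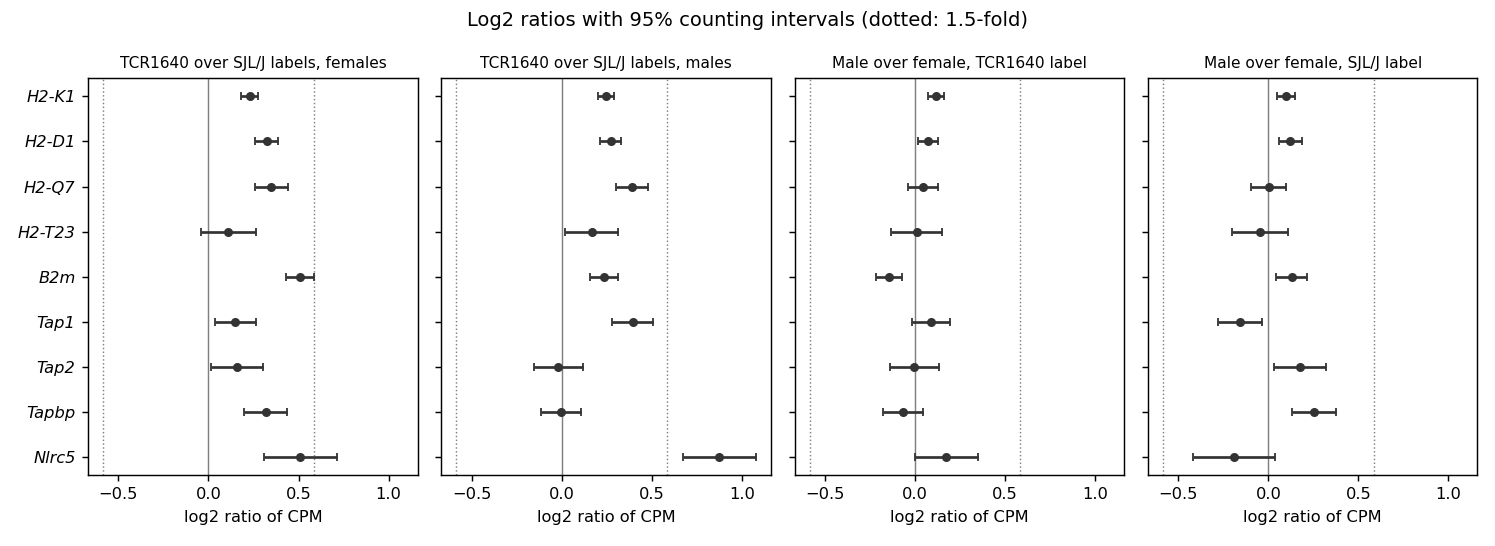
Log2 ratios of CPM (horizontal axis) for the 9 genes in the 4 comparisons of 2 groups. Points are summed samples, bars exact 95% counting intervals, and dotted lines mark 1.5-fold. Only Nlrc5 in males, at 0.87, passes a dotted line, and the values for sex lie between -0.19 and 0.25.

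Between sexes, the 9 genes differed little. Averaged over strain labels, none of 9 passed in edgeR (0 rose and 0 fell, while 1.1% of all tested genes were called, 0.139% as higher and 0.962% as lower in males), with log2 differences, males minus females, from -0.03 for Tap1 to 0.11 for H2-K1 and a median of 0.02, against 0.00 over all genes. DESeq2 and limma-voom also called 0 of 9, and 0 of 9 had an unadjusted p below 0.05 in any of the 3 tools. None of the 9 reached 1.5-fold in either label, against 7.94% of all genes in TCR1640 and 6.87% in SJL/J. The values of H2-K1 were 0.11 (0.07 to 0.16) under the TCR1640 label and 0.10 (0.05 to 0.15) under the SJL/J label. Those of H2-D1 were 0.07 (0.01 to 0.13) and 0.12 (0.06 to 0.19). Both were thus slightly higher in males under both labels, by more than counting error. By that measure 3 of the 9 genes were higher and 1 lower in males under the TCR1640 label (12.1% and 14.4% of all genes), and 5 were higher and 1 lower under the SJL/J label (10.4% and 12.1%). When the 8 columns were fitted as separate samples, edgeR called these 2 genes as higher in males (adjusted p = 6.70e-05 for H2-K1 and 0.00196 for H2-D1), a test between libraries that called 6.92% of all genes as higher in males.

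The change of the sex difference between the 2 labels excluded 0 by counting error for 4 of 9 genes, against 22.5% of all genes. For B2m the male-to-female log2 ratio was -0.14 (-0.22 to -0.07) under the TCR1640 label and 0.13 (0.04 to 0.21) under the SJL/J label, a change of -0.27 (-0.38 to -0.16). For Tapbp it was -0.07 and 0.25, a change of -0.32 (-0.48 to -0.16). For Tap1 it was 0.09 and -0.16, a change of 0.24 (0.08 to 0.40), and for Nlrc5 0.17 and -0.19, a change of 0.36 (0.08 to 0.65). The heavy chains did not share this: their changes lay between -0.05 and 0.06, with intervals that include 0. The count of 4 became 2 without SJL/J female column 2. No spread between mice was left to test these changes.

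The genes on the opposite strand bear on what these counts measure. The library kit is stranded, and the strand setting of the counting is not given in the sources used here. H2-K1, H2-D1, H2-Q7, H2-T23 and B2m have no annotated exon overlap with the other strand, and their median strain difference was 0.30. The unknown strand setting applies to these 5 genes too. If the counting took the other strand, their counts would not be a full measure of their own transcripts, and the table alone does not settle this. Tapbp, at 3628 exon bases, shares 904 with Gm19412, an antisense feature on the other strand at 33919279 to 33920485 of chromosome 17 that also overlaps Zbtb22. Gm19412 had 3.51 times the counts of Tapbp and, unlike Tapbp, rose with the TCR1640 label (0.52, SE 0.11, edgeR adjusted p = 5.74e-05). In males Gm19412 stood at 0.66 (0.59 to 0.72) where Tapbp stood at 0.00. Its sex ratio also went the other way, at 0.07 under the TCR1640 label and -0.19 under the SJL/J label, against -0.07 and 0.25 for Tapbp. The direction read for tapasin in males therefore depends on which strand holds its reads, and the Tapbp value is uncertain.

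Tap2 shares exon sequence with Gm15821 (533 bases) and Gm20496 (165 bases, also over the immunoproteasome gene Psmb8), which had 11.7 and 19.7 times its counts. Psmb8 itself had 85.4 to 114 CPM in the 4 groups, against 1738 to 2203 CPM for Gm20496. Gm15821 and Gm20496 were higher under the TCR1640 label in each sex, by 0.20 and 0.17 in females and 0.22 and 0.34 in males. Tap2 stood at 0.16 in females and -0.02 in males. Averaged over sexes neither passed (edgeR adjusted p = 0.155 for Gm15821 and 0.0580 for Gm20496). Tap1 shares 212 bases with the immunoproteasome gene Psmb9, and Nlrc5 shares 78 with 9330175E14Rik, a noncoding neighbour. Between strain labels Psmb9 rose by 0.36, where Tap1 did not pass, and 9330175E14Rik rose by 0.71, as Nlrc5 rose (edgeR adjusted p = 0.0210 for Psmb9 and 8.19e-05 for 9330175E14Rik). Between sexes these pairs did not go the same way throughout. Under the SJL/J label the male-to-female log2 ratio was -0.16 (-0.28 to -0.03) for Tap1 and 0.14 (0.01 to 0.27) for Psmb9. Under the TCR1640 label it was 0.17 (0.00 to 0.35) for Nlrc5 and -0.12 (-0.36 to 0.12) for 9330175E14Rik. The Nlrc5 overlap covers 0.918% of its exon bases.

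**Figure D4:**
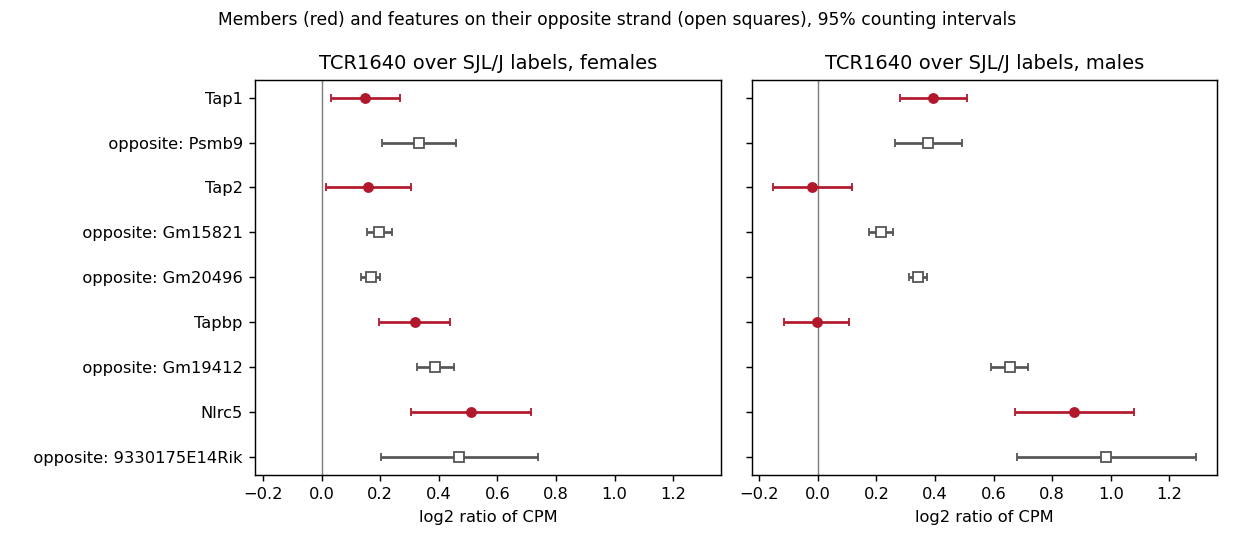
Log2 ratios between strain labels (horizontal axis) in females and males for the 4 genes with opposite-strand overlap (red circles) and the features over them (open squares), with 95% counting intervals. Tapbp and Tap2 lie at equality in males while Gm19412 (0.66), Gm15821 (0.22) and Gm20496 (0.34) lie to the right.

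The heavy chain genes also share part of their sequence with related genes. How reads that fit several genes were counted is not given in the sources used here. Of the 50-base stretches in the annotated H2-Q7 transcripts, 26.5% also occur in transcripts of other genes, foremost H2-Q10. The share was 14.5% for H2-T23, 12.8% for H2-D1, 9.63% for H2-K1 and 0 for B2m. The H2-Q7 level in particular is therefore uncertain between the genes that share these stretches.

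Of 17 other heavy chain genes listed, 13 were tested, 4 rose with the TCR1640 label, none fell and 9 did not pass, against 13.4% higher and 13.1% lower over all genes, with all 13 above 0 and a median log2 difference of 0.36. H2-Q6 rose by 0.40, H2-Q2 by 0.33 and H2-Q4, which overlaps Gm11131 on the other strand, by 0.32 (edgeR adjusted p = 0.0124, 0.0460 and 0.0294). The fourth was H2-T3, named after its values were seen. It encodes the thymus leukaemia antigen, a chain that binds CD8αα, and had 10.2 and 10.9 CPM in females and males labelled TCR1640 against 2.64 and 2.29 CPM, a log2 difference of 2.09 (SE 0.29, edgeR adjusted p = 4.38e-11). Among class I-like genes 3 were tested and 2 rose, against the same shares. They were Mr1, which presents vitamin metabolites to MAIT cells (1.01, SE 0.21, edgeR adjusted p = 2.22e-05), and Fcgrt, the neonatal Fc receptor, at only 0.24 to 2.58 CPM and named after its values were seen.

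Peptide loading and trimming genes went the other way from the members on balance. Of 14 tested, 6 fell with the TCR1640 label, 1 rose and 7 did not pass, against 13.4% higher and 13.1% lower over all genes, with a median log2 difference of -0.22. Lap3, a leucine aminopeptidase, fell by 1.19 and Thop1, a peptidase that destroys class I peptides, fell by 1.06 (edgeR adjusted p = 6.12e-08 and 3.59e-05). The other 4, named after their values were seen, were the endoplasmic reticulum chaperones Calr (fell by 0.71), Canx (fell by 0.55), Pdia3 (fell by 0.40) and Hspa5 (fell by 0.37), none of them particular to class I. Tapbpl, the tapasin relative that edits class I peptides, was the one that rose, by 0.89 (SE 0.14, edgeR adjusted p = 1.56e-08), from 36.7 and 28.9 CPM to 63.7 and 57.6 CPM. Of 6 immunoproteasome genes Psmb9 rose, 0 fell and 5 did not pass, a share near the 13.4% of all genes called as higher.

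Upstream of the class I promoters, 5 of 17 enhanceosome and transcription factor genes rose with the TCR1640 label, none fell and 12 did not pass, against 13.4% higher and 13.1% lower over all genes, with a median of 0.18. Irf1, a transcription factor of interferon responses that binds class I promoters, rose by 0.82 (SE 0.12, edgeR adjusted p = 1.30e-10). It had 401 and 361 CPM in females and males labelled TCR1640 against 231 and 200 CPM, and it overlaps Gm17334 on the other strand. Stat2, a signal transducer of type I interferon receptors, rose by 0.50 (SE 0.14, edgeR adjusted p = 0.00242), with 71.6 CPM in both females and males labelled TCR1640 against 50.7 and 50.9 CPM. Rfx5, Rfxap and Rfxank, the RFX complex of the X1 box, did not pass, with values of 0.33, 0.04 and -0.01.

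Of 9 tested genes for interferon-γ, interferon receptors, JAK kinases and Socs1, 4 rose and none fell, with a median of 0.35. Over all genes, 13.4% were called as higher and 13.1% as lower. Socs1, the feedback inhibitor of JAK kinases, rose by 1.31 (SE 0.16, edgeR adjusted p = 1.39e-14), Jak1 by 0.84 and Ifnar1 by 0.59. Ifng itself did not pass, at 13.8 and 11.4 CPM under the TCR1640 label and 11.4 and 21.3 CPM under the SJL/J label (-0.36, SE 0.19, edgeR adjusted p = 0.168). Ifnb1 was at 0 counts in all 8 columns. Of 8 tested genes on a list of receptors that read class I, 4 rose (Cd8a, Cd8b1, Klrd1 and Klrk1) and 1, Lilrb4a, fell. These counts stand against the same shares over all genes. The list is broad, and its name does not hold strictly for Klrk1 and Lilrb4a. Cd8a had 156 and 171 CPM against 23.2 and 27.7 CPM, a log2 difference of 2.69. Across sexes, Cd160 was the only gene of these 7 lists that passed (fell by 0.66 in males, edgeR adjusted p = 0.0462). It overlaps Pdzk1 on the other strand.

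**Figure D5:**
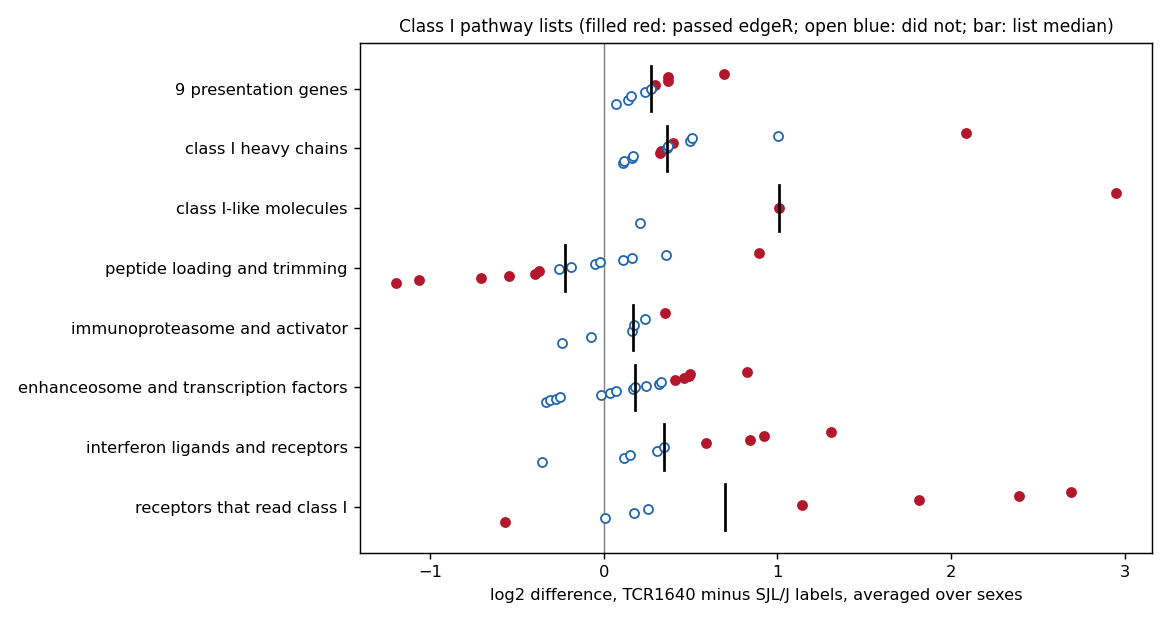
Log2 differences between strain labels, averaged over sexes (horizontal axis), of tested genes in the list of 9 and in 7 other class I pathway lists (rows). Filled red points passed edgeR, open blue points did not, and bars mark list medians. The median is 0.27 for the 9 genes, 0.36 for other heavy chains and -0.22 for peptide loading and trimming.

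By distance over the 4 groups, the 5 genes whose centred log2 profile lay nearest to the median profile of the 9 were Ltb (lymphotoxin beta, distance 0.03), Sp2 (0.03), Sptan1 (0.04), Med10 (0.04) and Gtpbp1 (0.04). Of these, Sp2, Med10 and Gtpbp1 overlap a feature on the other strand. Among the 9, H2-D1 lay nearest to their median (0.02) and Nlrc5 furthest (0.46). With only 4 points, such neighbours are many.

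Markers of cell types moved with the strain labels, and fewer cells of a type cannot be told apart from less RNA per cell in these bulk samples. For the counts of markers called below, the same edgeR fit called 13.4% of all tested genes as higher and 13.1% as lower under the TCR1640 label. The 6 T cell markers, all present, summed to 985 to 1118 CPM in columns labelled TCR1640 and 755 to 867 CPM in those labelled SJL/J, and 3 of 6 rose. Cd8a and Cd8b1 summed to 271 to 284 CPM against 38.5 to 52.4 CPM, and both rose. The 6 B cell markers summed to 39.4 to 43.85 CPM against 21.9 to 26.9 CPM (3 of 5 tested rose), and the 6 NK markers to 31.2 to 48.99 CPM against 13.5 to 17.1 CPM (2 of 3 tested rose), with Klra8 at 0 in all columns and Ncr1 and Klrb1c at no more than 4 counts in a group. The 6 neutrophil markers summed to 3.28 to 8.17 CPM against 49.3 to 130 CPM (5 fell, 1 rose), the 6 platelet markers to 8.96 to 12.2 CPM against 148 to 267 CPM (6 fell), and the 6 mast cell and basophil markers to 52.5 to 57.8 CPM against 77.4 to 99.7 CPM (5 fell and Kit rose). None of the 2 tested dendritic cell and 3 tested stromal and endothelial markers passed, and 1 of 3 macrophage markers fell. The part of these cell types in the class I differences was not tested.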

How the data were processed

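RNA of 8 libraries (500 ng each, a stranded KAPA mRNA kit, per the labels) was measured. The values deposited by the authors are raw counts, 1 row for each Ensembl gene. Per the submitters' processing notes, bcl2fastq 2.17, Bowtie2, HTSeq and the mm10 build were used. The strand setting, the multi-mapping rule and the annotation are not given in the sources. Groups and replicate numbers came from sample titles. Symbols, positions and exon lengths came from GENCODE M21 on GRCm38 (147 identifiers unmatched), promoter sequences from RefSeq on GRCm38.p6.

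The members and lists were chosen with earlier results of these data known. Summed columns were fitted with edgeR 4.0.16 in R 4.3.3 (additive sex and strain, TMM, filterByExpr, quasi-likelihood F test, Benjamini-Hochberg threshold 0.05). Standard errors are log2 changes divided by the root of the F statistic. Ratios of 2 groups used exact binomial 95% intervals, which cover counting error only. A gene was past the size rule at 1.5-fold, with an interval excluding equality and at least 20 counts. Alternatives were RLE, upper-quartile and non-overlapped TMM scaling, 2 filters, DESeq2 1.42.0, limma 3.58.1 (voom), 8 separate columns with and without a replicate block, and leaving out columns. Scripts were tested on simulated data. Other genes were named by a rule: the 3 largest passing differences per list with a mean log2 CPM of at least 3, and the 5 nearest profiles. One gene that the rule names is not reported here. Same-numbered columns were checked for shared deviations. Correlations of number differences between groups ran from -0.0028 to 0.03 over 6 pairs of groups. The columns of a group differ by little more than counting error, so this check cannot decide whether the numbers pair libraries.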

Additional observations from a re-analysis of the deposited data

Results flagged for a closer look

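In a fit of the 8 columns as separate libraries, the sex difference changed between strain labels for 3 of the 9 genes by an edgeR interaction term, which called 10.2% of 15793 genes. The male-minus-female log2 difference under the TCR1640 label, less that under the SJL/J label, was -0.27 for B2m (adjusted p = 4.58e-05), 0.24 for Tap1 (adjusted p = 0.0355) and -0.32 for Tapbp (adjusted p = 0.00263). B2m was lower in males than in females under the TCR1640 label and higher under the SJL/J label. Tap1 went the opposite way to B2m, and Tapbp, which has Gm19412 on its other strand, followed B2m. Nlrc5 had a change of 0.36 that did not pass this test (adjusted p = 0.122). The columns within a group are almost as alike as repeated draws from 1 library, so the test compares libraries and not mice.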

How the results depend on the processing

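Of 171 alternative values for the strain differences of the 9 genes, 170 were above 0. The number of genes called between strain labels, 4, became 1 with DESeq2, which called 3.56% of all genes as higher, and 8 with the 8 columns as separate samples, with and without a replicate block (25% of all genes without it), and ranged from 1 to 4 when columns were left out (1 without the number 2 columns, 2 without TCR1640 male column 2). Between sexes 0 became 2 with 8 columns (6.92% of all genes without the block), with and without the block, and stayed 0 when columns were left out. In the 8-column fits the same genes were called with the block as without it. At 2-fold the count in males fell from 1 to 0. The 4 genes whose sex difference changed ranged from 2 to 5 when columns were left out. The Tap2 strain value ranged from -0.039 to 0.14 in those fits. Sex values near 0 turned sign: B2m (-0.0087 as reported) was 1.75e-05 with upper-quartile factors, 0.0012 with no filter and 0.0071 with DESeq2, and Nlrc5 (0.0024) was -0.021 with TMM on non-overlapped genes, -0.0079 with 8 columns and -0.0080 with the replicate block. When columns were left out, sex values ranged from -0.040 to 0.099 for H2-Q7, -0.047 to 0.021 for H2-T23, -0.048 to 0.034 for B2m, -0.11 to 0.062 for Tap1 and -0.053 to 0.081 for Nlrc5. The cause of these changes was not tested. With 1 sample per group, counting depth limits only the counting intervals, and spread between mice is unknown.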
